A study of Mus musculus with 12 samples.

Results

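Zfp986, Zfp990 and Zfp708 are 3 zinc finger genes of the mouse that were picked by name, out of 53465 genes in the expression table, because their counts came close to 0 in some groups of LSKs and not in others. Their levels were what chose them, so these levels are given as a description and without a test. LSKs are the Lin- Sca-1+ c-Kit+ cells of the bone marrow, which hold the hematopoietic stem cells and multipotent progenitors. Poly-A RNA of LSKs was sequenced in 4 groups of 3 libraries: untreated Tespa1+/+, untreated Tespa1-/-, and both genotypes on day 9 following 5-fluorouracil (5-FU), a drug toxic to dividing cells. The Tespa1-/- mice carry the allele B6.129S-Tespa1tm1Smoc, whose name marks it as made in 129 and which was backcrossed to C57BL/6, and the Tespa1+/+ mice were littermates per the labels. The sources name no Cre driver or cell type that would limit the deletion to blood.

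Library totals ran from 22118154 to 28275079 counts, and 3 counts, the floor used here, equal 0.106 to 0.136 CPM, the unit of counts after scaling by library size. Tespa1 itself was at 46.5 ± 3.41 CPM (SD, n = 3) in untreated Tespa1+/+ and 34.8 ± 0.235 CPM (SD, n = 3) in untreated Tespa1-/- LSKs, and at 53.2 ± 5.37 and 19.3 ± 1.82 CPM (SD, n = 3 each) after 5-FU. Reads on the deleted gene were thus fewer but not absent. The untreated difference (log2 fold change -0.42, adjusted p = 0.0316, edgeR's quasi-likelihood test) was under 1.5-fold, and its adjusted p stayed below 0.05 in only 1 of the 6 fits that left out a library, the one without untreated Tespa1+/+ library 2. The summed level of 9 LSK markers was 1550 to 1629 CPM in untreated Tespa1+/+, 1286 to 1333 in untreated Tespa1-/-, 1274 to 1329 in 5-FU-treated Tespa1+/+ and 763 to 836 in 5-FU-treated Tespa1-/-. The sum of 10 neutrophil markers was 0.498 to 6.75 CPM in the first 3 groups and 991 to 1015 CPM in 5-FU-treated Tespa1-/-, and that of 8 erythroid markers was 19.9 to 56.2 CPM against 366 to 385 CPM. In such bulk samples, fewer cells of a type and less RNA per cell cannot be told apart.

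KRAB zinc finger proteins are a large family of DNA-binding repressors. Their C2H2 fingers read a DNA sequence, often in a transposable element, and their KRAB domain recruits TRIM28, which gathers the histone methyltransferase SETDB1, heterochromatin protein and histone deacetylases. The genes lie in clusters that arose by repeated duplication, so that neighbours resemble each other closely.

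Zfp990 (ENSMUSG00000078503) lies on the plus strand of chromosome 4 from 145510759 to 145539188 (GRCm38), and its longest coding sequence translates to 605 residues with 13 C2H2 fingers. Zfp986 (ENSMUSG00000078500) lies 330 kb further along the same strand, from 145868794 to 145899975. Its longest annotated coding sequence has 401 residues and 5 fingers and is marked as incomplete at its 3′ end. Both hold the core of the KRAB A box. Zfp708 (ENSMUSG00000058883) lies in another cluster, on the minus strand of chromosome 13 from 67069399 to 67097976, with 541 residues and 16 fingers. Its protein matched the KRAB A core only when the tryptophan of that pattern was not required.

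The coding sequences show how alike the genes are. Below are the first 120 coding bases of Zfp990 and Zfp986, from GENCODE M21 transcripts, with the 5 bases at which Zfp986 differs from Zfp990 in capitals.
Zfp990: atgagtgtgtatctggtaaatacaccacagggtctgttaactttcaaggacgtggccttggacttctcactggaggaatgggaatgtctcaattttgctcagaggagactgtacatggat
Zfp986: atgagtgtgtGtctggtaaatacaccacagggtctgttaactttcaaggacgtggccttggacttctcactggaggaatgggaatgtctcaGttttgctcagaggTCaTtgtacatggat
The Zfp986 stretch differed at 0 bases from the same stretch of Zfp987, Zfp988 and Zfp534, which are other zinc finger genes of chromosome 4. A read that lies wholly within this stretch therefore fits all 4 genes equally well.

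The same holds for Zfp708 and an overlapping gene model. Gm28557 lies on the same minus strand, shares the lower coordinate 67069399 with Zfp708 and reaches up to 67108604. The first 120 coding bases of the Zfp708 transcript of 2416 bases are shown with the 116 bases that lie within exons of Gm28557 in capitals.
Zfp708: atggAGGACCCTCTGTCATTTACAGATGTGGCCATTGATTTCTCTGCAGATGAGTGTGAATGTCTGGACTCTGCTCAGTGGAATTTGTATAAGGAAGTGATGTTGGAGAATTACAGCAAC
Of this transcript, 97.5% of all bases and 99.7% of the coding bases were also in Gm28557.

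The share of each gene that no other gene holds was counted in windows of 50 bases along the annotated transcripts. Zfp990 had 2454 unique windows of 3408 (72.0%), Zfp986 had 218 of 1328 (16.4%) and Zfp708 had 135 of 2629 (5.1%). Zfp986 shared most with Zfp988 (66.3% of its windows), Zfp987 (63.6%), Zfp534 (60.1%) and the chromosome 3 gene model Gm8935 (59.9%). Zfp990 shared 13.1% with Zfp987 and 12.6% with Zfp534. Zfp708 shared 94.6% with Gm28557, 5.6% with Zfp85 and 5.2% with Rslcan18. Rslcan18 (67096613 to 67116263) also overlaps Zfp708 on the same strand. Its log2 fold change in untreated Tespa1-/- was 3.50, with an adjusted p of 0.0798 (edgeR's quasi-likelihood test). How the counting assigned reads from shared sequence, and whether it used strand, is not given in the sources used here, so the counts of Zfp986 and Zfp708 are uncertain and those of Zfp990 less so.

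Zfp990 was the most abundant of these genes and had the widest range of levels. It had 5, 10 and 0 counts in the 3 untreated Tespa1+/+ libraries and 1259, 1270 and 1230 counts in the untreated Tespa1-/- libraries. After 5-FU it had 350, 622 and 345 counts in Tespa1+/+ and 366, 502 and 209 counts in Tespa1-/-. The untreated groups thus lay far apart, while the groups after 5-FU overlapped and lay between them.

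In CPM, Zfp990 was at 0.208 ± 0.224 in untreated Tespa1+/+, 55.1 ± 1.33 in untreated Tespa1-/-, 17.3 ± 5.79 in 5-FU-treated Tespa1+/+ and 14.1 ± 5.05 in 5-FU-treated Tespa1-/- (SD, n = 3 each). The pooled counts of untreated Tespa1-/- exceeded those of untreated Tespa1+/+ by 269-fold (95% interval 163 to 481). 5-FU-treated Tespa1+/+ exceeded untreated Tespa1+/+ by 86.9-fold (52.5 to 156). In Tespa1-/- the order was the other way round, with untreated 3.84-fold above 5-FU (3.59 to 4.11). These intervals are exact binomial, cover counting error only and leave out the spread between libraries, which was wide after 5-FU. After 5-FU the ratio of Tespa1-/- to Tespa1+/+ was 0.805, well within that spread.

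**Figure D1:**
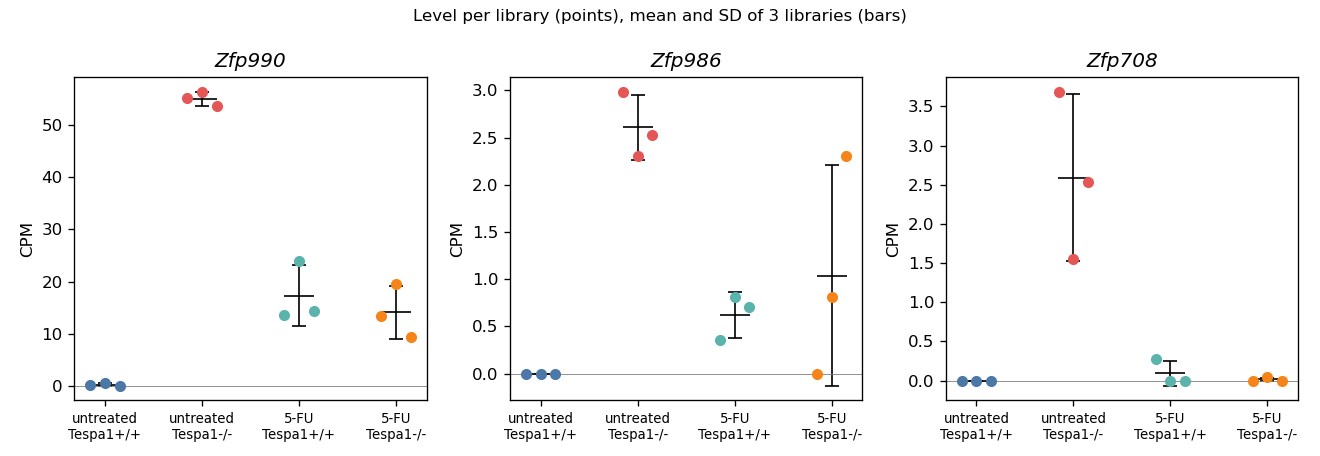
Level of each gene in CPM (linear axes that differ between panels) in the 12 libraries: points are libraries, the horizontal mark is the mean and the error bar the SD of 3 libraries. Zfp990 reached 55.1 CPM in untreated Tespa1-/-, stood at intermediate levels in both groups after 5-FU and was near 0 in untreated Tespa1+/+, whereas Zfp708 was above 1 CPM in untreated Tespa1-/- libraries only.

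Zfp986 had 0 counts in all 3 untreated Tespa1+/+ libraries and 68, 52 and 58 counts in untreated Tespa1-/-. After 5-FU it had 9, 21 and 17 counts in Tespa1+/+ and 0, 21 and 51 counts in Tespa1-/-. The 3 libraries of 5-FU-treated Tespa1-/- thus covered nearly the whole range of the gene, from 0 to 2.30 CPM, and spanned those of Tespa1+/+.

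The mean level of Zfp986 was 2.61 ± 0.345 CPM in untreated Tespa1-/-, 0.621 ± 0.240 CPM in 5-FU-treated Tespa1+/+ and 1.04 ± 1.17 CPM in 5-FU-treated Tespa1-/- (SD, n = 3 each). Against the floor of 3 counts per library, untreated Tespa1-/- was at least 21.1-fold higher than untreated Tespa1+/+. 5-FU-treated Tespa1+/+ was at least 5.02-fold higher than untreated Tespa1+/+. Among the Tespa1-/- libraries after 5-FU, the one with the most Zfp986 (51 counts) had the least Zfp990 (209 counts), so these neighbours did not keep a fixed ratio there.

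Zfp708 had 0 counts in every untreated Tespa1+/+ library and 84, 35 and 58 counts in untreated Tespa1-/-. After 5-FU it had 7, 0 and 0 counts in Tespa1+/+ and 0, 1 and 0 counts in Tespa1-/-. It was thus above the floor in all libraries of 1 group and in 1 library of the other 9.

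Its mean was 2.59 ± 1.07 CPM in untreated Tespa1-/- (SD, n = 3), at least 20.9-fold above the floor in untreated Tespa1+/+. Untreated Tespa1-/- exceeded 5-FU-treated Tespa1-/- by 195-fold in pooled counts, with an interval of 34.5 to 7738 because only 1 count was found after 5-FU. This interval too covers counting error only and is no test of a difference. A library at 0 allows up to 3 counts, so a level below about 0.1 CPM was not detectable at this depth.

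The pattern of levels was therefore not the same for the 3 genes. Zfp990 was above the floor in libraries of all 4 groups, Zfp986 in 3 and Zfp708 mainly in 1, so that only Zfp708 came close to being restricted to a group. Untreated Tespa1+/+ was the lowest or joint lowest group for each.

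Compared per length, in the deposited FPKM, Zfp990 was at 0.0528 in untreated Tespa1+/+, 14.1 in untreated Tespa1-/-, 4.54 in 5-FU-treated Tespa1+/+ and 3.62 in 5-FU-treated Tespa1-/-. Among 374 genes named Zfp and a number, it ranked 328 by mean FPKM in untreated Tespa1+/+ and 10 in untreated Tespa1-/-, and 67 in 5-FU-treated Tespa1+/+ and 84 in 5-FU-treated Tespa1-/-. Zfp986 reached 1.74 FPKM and Zfp708 0.525 FPKM in untreated Tespa1-/-, ranks 154 and 273. The median of the 374 genes was 1.04 FPKM in untreated Tespa1+/+ and 1.27 FPKM in untreated Tespa1-/-. In untreated Tespa1-/- LSKs Zfp990 was thus one of the most abundant of these 374 genes, which were taken by symbol and are not all KRAB genes. Zfp708 stayed below their median.

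The counts of genes that share sequence were then added up. Zfp708 and Gm28557 together were at 3.76 ± 1.54 CPM in untreated Tespa1+/+, 4.78 ± 0.856 in untreated Tespa1-/-, 4.67 ± 2.23 in 5-FU-treated Tespa1+/+ and 3.85 ± 2.43 in 5-FU-treated Tespa1-/- (SD, n = 3 each). These 4 groups overlapped. Gm28557 alone had 56, 101 and 106 counts in untreated Tespa1+/+ and 27, 91 and 31 counts in untreated Tespa1-/-, and the Tespa1-/- library with the most Gm28557 (91 counts) was the one with the least Zfp708 (35 counts).

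Zfp986 and the 6 genes that share at least 10% of its windows summed to 9.10 ± 2.03 CPM in untreated Tespa1+/+ and 10.6 ± 0.965 CPM in untreated Tespa1-/- (SD, n = 3 each), and these groups overlapped as well. After 5-FU the sum was 10.5 ± 2.69 CPM in Tespa1+/+ and 6.39 ± 1.96 CPM in Tespa1-/-. Without the gene itself, the sum of its sharing genes went from 9.10 ± 2.03 to 8.0 ± 0.637 CPM for Zfp986 and from 3.76 ± 1.54 to 2.19 ± 1.60 CPM for Zfp708 between untreated Tespa1+/+ and Tespa1-/- (SD, n = 3 each). In untreated Tespa1-/-, Zfp986 and Zfp708 themselves added 2.61 and 2.59 CPM to these sums.

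For Zfp990 the sum follows the gene itself, which made up most of it outside untreated Tespa1+/+. Zfp990, Zfp987 and Zfp534 together were at 7.39 ± 1.30 CPM in untreated Tespa1+/+ and 59.5 ± 1.96 CPM in untreated Tespa1-/- (SD, n = 3 each), which do not overlap. After 5-FU the sum was 25.3 ± 3.67 CPM in Tespa1+/+ and 17.2 ± 4.26 CPM in Tespa1-/-. Without Zfp990, the pair summed to 7.18 ± 1.51 CPM in untreated Tespa1+/+ and 4.43 ± 0.866 CPM in untreated Tespa1-/-.

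**Figure D2:**
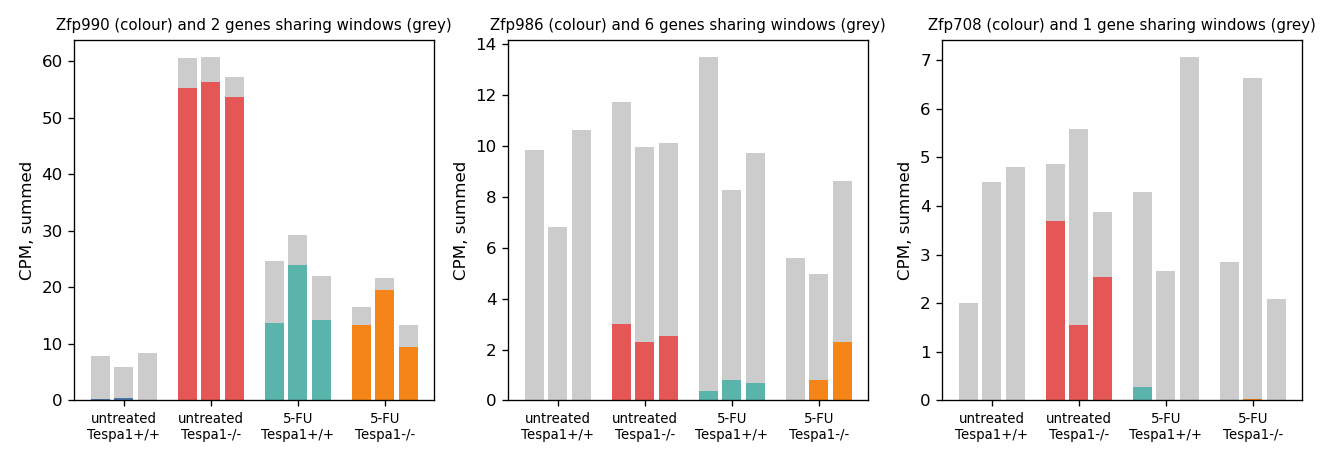
CPM of each gene (coloured) stacked on that of the genes sharing at least 10% of its 50-base windows (grey), 1 bar per library, with bars grouped by condition and axes that differ between panels. The coloured part makes up most of the bar for Zfp990 outside untreated Tespa1+/+, where the sum was 7.39 CPM against 59.5 CPM in untreated Tespa1-/-, whereas the bars of Zfp986 and Zfp708 have overlapping heights in the untreated groups.

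The genes that share sequence with Zfp986 moved in different directions. Zfp987 had 192, 105 and 172 counts in untreated Tespa1+/+ against 75, 43 and 31 in untreated Tespa1-/-, and 220, 75 and 161 against 42, 36 and 60 after 5-FU. Its log2 fold change was -1.55 (SE 0.36, adjusted p = 0.047) untreated and -1.69 (SE 0.45, adjusted p = 0.0363) after 5-FU, by edgeR's quasi-likelihood test. These calls were fragile: the untreated one was lost in 5 of the 6 fits without a library and the one after 5-FU in 4.

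Gm21411, a gene model of the same cluster that shares 20.3% of the windows of Zfp986, had 3, 0 and 0 counts in untreated Tespa1+/+ and 32, 29 and 26 in untreated Tespa1-/-. It had 4, 7 and 6 counts in 5-FU-treated Tespa1+/+ and 22, 12 and 33 in 5-FU-treated Tespa1-/-, so that the genotypes did not overlap under either treatment. The ratio of pooled counts was 31.1 (95% interval 10.3 to 154) untreated and 3.88 (2.25 to 7.05) after 5-FU. These intervals too cover counting error only and leave out the spread between libraries. The untreated call of Gm21411 (adjusted p = 0.0279) was lost in 5 of the 6 fits without a library, and after 5-FU it was not called (adjusted p = 0.142).

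Zfp534 had 25, 18 and 12 counts in untreated Tespa1+/+ and 46, 56 and 51 in untreated Tespa1-/-, which do not overlap, but it was not called (log2 fold change 1.58, SE 0.40, adjusted p = 0.063).

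The genes within 1 Mb were examined next. Genes were called at a fold change above 1.5 and an adjusted p below 0.05, with the adjustment made over the whole table. Of 27 tested neighbours of Zfp990 and Zfp986 on chromosome 4, 1 was higher and 2 were lower in untreated Tespa1-/- (11.1% called), where 2.51% of all 17055 genes tested were called, 0.973% higher and 1.54% lower. After 5-FU, 0 were higher and 6 lower (22.2%), where 6.98% of 17239 genes were called, 3.95% higher and 3.03% lower. Of the neighbours of Zfp708 on chromosome 13, 0 of 32 were called untreated and 2 of 33 after 5-FU, both lower (6.06%). Of these 32, 25 had a positive log2 fold change in untreated Tespa1-/- and 7 a negative one, where 51.2% of all genes were positive. Their median was 0.38, beside 0.01 for all genes. After 5-FU, 13 were positive and 20 negative. Over both windows the alternative test DESeq2 called 10 of 59 neighbours untreated (16.9%, beside 3.65% of all genes) and 8 of 60 after 5-FU (13.3%, beside 8.39%). The genes of a cluster share sequence and are not independent of each other.

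The firmest of these was Znf41-ps, a pseudogene at 145825237 to 145829942, between Zfp990 and Zfp986. It was at 34.9 ± 5.13 CPM in untreated Tespa1+/+ and 16.9 ± 0.649 CPM in untreated Tespa1-/- (SD, n = 3 each; log2 fold change -1.04, SE 0.13, adjusted p = 0.0033). After 5-FU it was at 31.0 ± 2.61 and 18.9 ± 0.992 CPM (log2 fold change -0.72, SE 0.13, adjusted p = 0.00541). Both calls held without any 1 library. This neighbour was thus lower in Tespa1-/- under both treatments.

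After 5-FU, Zfp992 fell from 33.5 ± 2.15 CPM in Tespa1+/+ to 19.3 ± 2.83 CPM in Tespa1-/- (SD, n = 3 each; log2 fold change -0.80, SE 0.14, adjusted p = 0.00545), and Gm13212, a gene with 20 fingers, from 42.3 ± 3.53 to 26.8 ± 3.90 CPM (log2 fold change -0.66, SE 0.14, adjusted p = 0.0116). The call of Zfp992 held without any 1 library, and that of Gm13212 was lost without Tespa1-/- library 2. Zfp993 (log2 fold change -0.86, adjusted p = 0.0353) and Gm13241 (-0.72, adjusted p = 0.0335) were also lower, but lost the call in 4 and in all 6 of these fits. On chromosome 13, Zfp738 (-0.63, adjusted p = 0.0219) and Zfp493 (-1.32, adjusted p = 0.0448) were lower after 5-FU and lost the call in 4 and in 6 fits. The 8 calls over both windows after 5-FU became 4, 2 and 5 without Tespa1-/- library 1, 2 and 3 and 3 without Tespa1+/+ library 1. The 3 untreated calls became 1 without Tespa1-/- library 2 or 3 or Tespa1+/+ library 2.

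**Figure D3:**
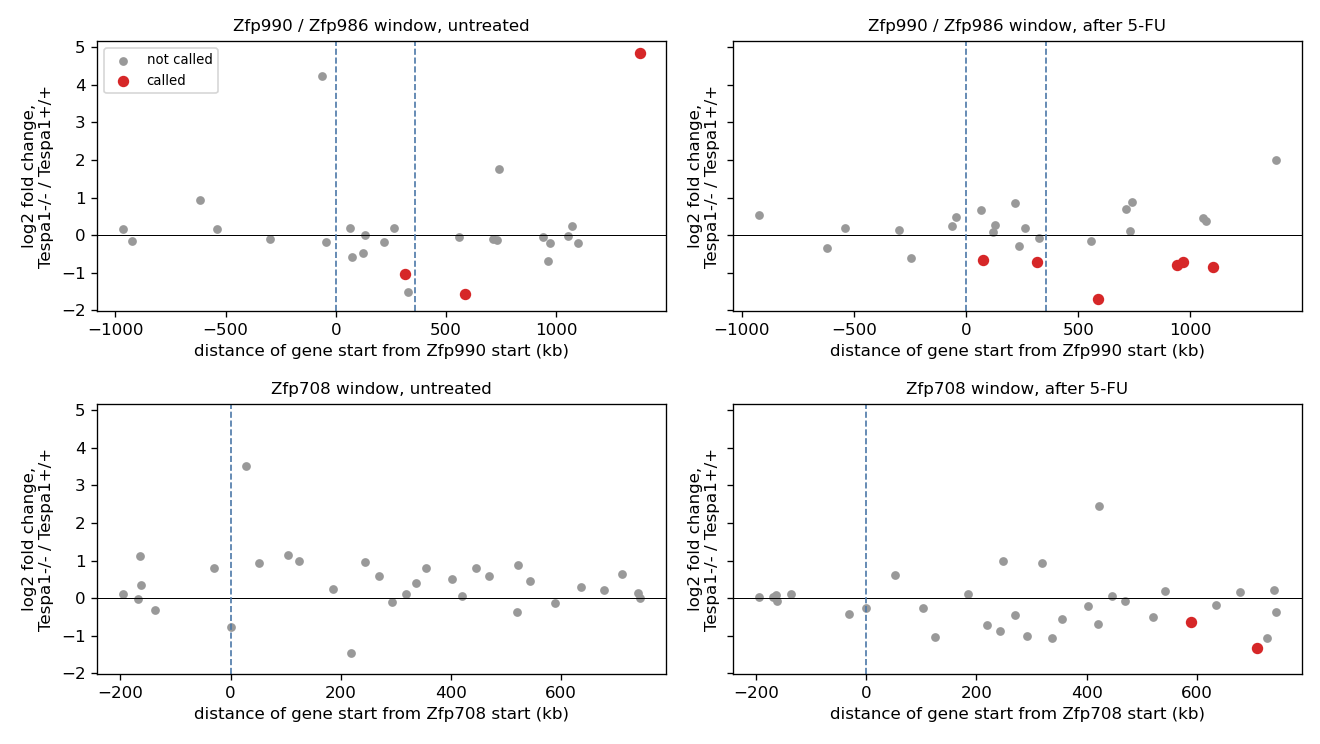
log2 fold change of Tespa1-/- over Tespa1+/+ for tested genes within 1 Mb, against the distance of the gene's start from that of Zfp990 (top) or Zfp708 (bottom) in kb, with dashed lines at Zfp990, Zfp986 and Zfp708. Red points passed an adjusted p of 0.05 and a fold change of 1.5, of which all but Gm21411 lie below 0, and the high grey points in the untreated panels are Gm13230 and Rslcan18, with adjusted p of 0.0749 and 0.0798.

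Between treatments, 0 of 54 neighbours were called in Tespa1+/+ (edgeR's quasi-likelihood test, where 9, or 16.7%, had an unadjusted p below 0.05, beside 21.5% of all genes, and DESeq2 called 2), and 3 of 59 in Tespa1-/-, 1 higher and 2 lower after 5-FU. Of all genes tested, 4.43% were called in the first of these comparisons, 2.74% higher and 1.69% lower, and 10.1% in the second, 6.0% higher and 4.07% lower. With p-values left unadjusted and the same fold change, 6.74% of all genes were past the threshold between untreated genotypes, 11.7% between genotypes after 5-FU, and 9.88% and 14.4% between treatments in Tespa1+/+ and Tespa1-/-. In the same order, 28.8%, 18.3%, 11.1% and 13.6% of the tested neighbours were past it.

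The wider family was described with the 371 other genes named Zfp and a number. Of these, 172 held at least 3 fingers and the KRAB core. Counts of the family below are therefore counts of a list taken by symbol, not of KRAB genes alone. In untreated Tespa1-/-, 3 rose and 3 fell of 329 tested (1.82% called, beside 2.51% of all genes). After 5-FU, 1 rose and 17 fell of 326 (5.52%, beside 6.98%). Between treatments, 8 rose and 4 fell after 5-FU of 328 in Tespa1+/+ (3.66%, beside 4.43%), and 0 rose and 10 fell of 328 in Tespa1-/- (3.05%, beside 10.1%). At these adjusted p-values the share of the family that was called in either direction was below the background in every comparison. With p-values left unadjusted it was above it in 3, with 11.9% between untreated genotypes (beside 6.74%), 14.4% between genotypes after 5-FU (beside 11.7%) and 13.1% between treatments in Tespa1+/+ (beside 9.88%), and below it in Tespa1-/- (9.45% beside 14.4%). DESeq2 called 19 family members between untreated genotypes (5.78%, beside 3.65% of all genes by DESeq2), 27 after 5-FU (8.28%, beside 8.39%), 21 between treatments in Tespa1+/+ (6.4%, beside 6.36%) and 13 in Tespa1-/- (3.96%, beside 11.1%). The order against the background thus depended on the threshold and the tool. At adjusted p-values by edgeR, the calls between genotypes after 5-FU and between treatments in Tespa1-/- were nearly all or all lower. The 17 falls of 326 between genotypes after 5-FU were a larger share than the 3.03% of all genes that fell. In Tespa1-/- the 10 falls of 328 between treatments were a smaller share than the 4.07% of all genes.

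The lean was also in the genes that were not called. Of 154 tested genes whose coding sequence held at least 3 fingers and the KRAB core, 108 had a positive log2 fold change in untreated Tespa1-/-, with a median of 0.27, where the median of all genes was 0.01. That is 70.1% positive, beside 51.2% of all genes. After 5-FU, 129 of 151 had a negative one, with a median of -0.37 beside -0.01 for all genes, so that 14.6% were positive, beside 49.1% of all genes. Between treatments, 117 of 151 were positive in Tespa1+/+ (77.5%, beside 51.7%; median 0.35), and 119 of 153 were negative in Tespa1-/- (22.2% positive, beside 49.1%; median -0.33). These comparisons share libraries and are not independent, and the KRAB-core list was an addition made with the data in view. The median kept its sign over the 14 fits of each comparison, but its distance from the median of all genes did not: with no filter on low counts it shrank to 0.04 between untreated genotypes and turned to 0.04 above all genes between treatments in Tespa1-/-. Marker sums moved with all 4 comparisons. Lower in untreated Tespa1-/- than in untreated Tespa1+/+ were LSK markers (1286 to 1333 against 1550 to 1629 CPM) and 6 B cell markers (34 to 41.3 against 57.7 to 66.9 CPM). Higher were erythroid markers (41.8 to 52.0 against 19.9 to 25.5 CPM) and 4 megakaryocyte markers (60.0 to 62.7 against 32 to 37.2 CPM). In 5-FU-treated Tespa1+/+, LSK markers were at 1274 to 1329 CPM, B cell markers at 249 to 255 CPM and megakaryocyte markers at 106 to 120 CPM. Neutrophil markers stood apart in 5-FU-treated Tespa1-/- (991 to 1015 CPM, at most 6.75 CPM elsewhere), where LSK markers were lowest. The part of these shifts in the result was not tested.

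**Figure D4:**
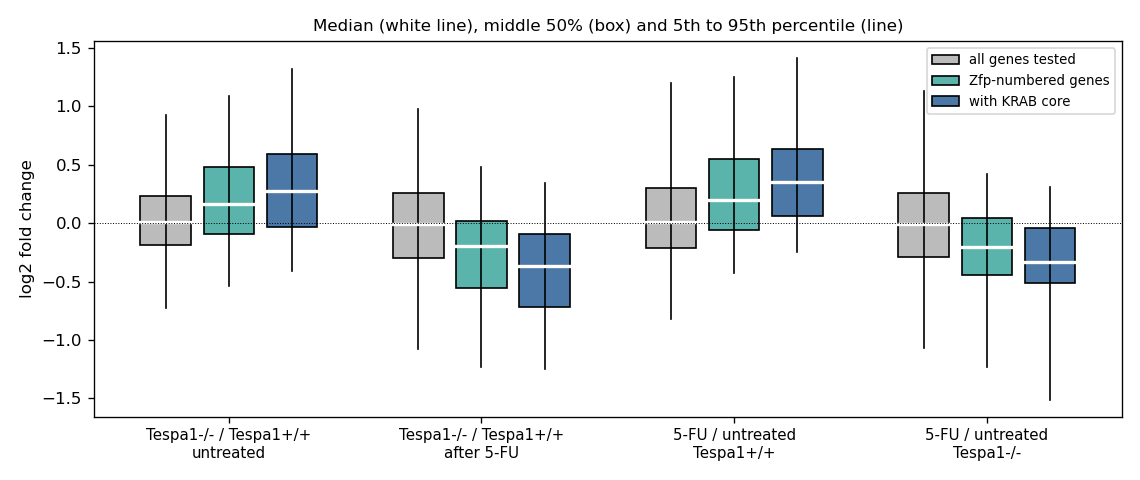
Distribution of log2 fold changes in each comparison for all genes tested, for genes named Zfp and a number, and for those with a KRAB core: boxes hold the middle 50%, white lines are medians and black lines run from the 5th to the 95th percentile. The KRAB-core genes have medians of 0.27, -0.37, 0.35 and -0.33 from left to right, while the medians of all genes lie near 0.

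Among single family members, Zfp169, with 17 fingers, was at 6.62 ± 0.309 CPM in untreated Tespa1+/+ and 16.2 ± 1.38 CPM in untreated Tespa1-/- (SD, n = 3 each; log2 fold change 1.29, SE 0.15, adjusted p = 0.00217). After 5-FU its levels were 17.5 ± 0.220 CPM (Tespa1+/+) and 16.1 ± 2.15 CPM (Tespa1-/-; SD, n = 3 each). Untreated Tespa1+/+ was thus the low group for Zfp169 as it was for Zfp990, and the rise after 5-FU in Tespa1+/+ (log2 fold change 1.40, SE 0.17, adjusted p = 0.00115) and the untreated difference both held without any 1 library.

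Zfp626 also rose in untreated Tespa1-/-, from 9.61 ± 1.03 to 17.1 ± 1.29 CPM (SD, n = 3 each; log2 fold change 0.83, adjusted p = 0.017, lost without any 1 of the Tespa1-/- libraries), as did Zfp94 (log2 fold change 1.02, adjusted p = 0.0484, lost in 5 of 6 fits). Lower in untreated Tespa1-/- were Zfp987 (above), Zfp580 (-1.37, adjusted p = 0.0211, lost in 4 of 6 fits) and Zfp36 (-0.88, adjusted p = 0.000234, held in all 6). Zfp36 belongs to the list by its symbol only: it encodes tristetraprolin, a CCCH protein that binds AU-rich elements of mRNAs. After 5-FU the largest falls were those of Zfp987, Zfp532 (-1.50, adjusted p = 0.00621, held in all 6 fits) and Zfp946 (-1.39, adjusted p = 0.033, lost in 5), and the 1 rise was that of Zfp652 (0.67, adjusted p = 0.041, lost in 5).

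The genes of the complexes that KRAB proteins recruit were counted in the same way. Of 33 tested corepressor genes, 0 were called in any of the 4 comparisons by edgeR's quasi-likelihood test, and DESeq2 called 0 as well, where 2.51%, 6.98%, 4.43% and 10.1% of all genes were called. Counted by unadjusted p alone, below 0.05, there were 6 untreated (18.2%, beside 18.5% of all genes), 14 after 5-FU (42.4%, beside 26.7%), 9 between treatments in Tespa1+/+ (27.3%, beside 21.5%) and 10 in Tespa1-/- (30.3%, beside 32.3%). Trim28 was at 465 ± 15.7 and 438 ± 4.69 CPM in untreated Tespa1+/+ and Tespa1-/-, and at 354 ± 22.7 and 381 ± 7.56 CPM after 5-FU (SD, n = 3 each). It fell after 5-FU by 0.39 on the log2 scale in Tespa1+/+ (adjusted p = 0.0035) and by 0.22 in Tespa1-/- (adjusted p = 0.0036), less than the 1.5-fold threshold, and its genotype difference did not pass the test under either treatment (adjusted p = 0.33 and 0.272). Setdb1 means lay between 77.6 and 84.0 CPM in all groups and passed no test.

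Lastly, the genes whose levels followed each member most closely over the 12 libraries were listed, by Pearson's r of log2(CPM + 1) among 16069 genes. They are a description, since the libraries share groups. For Zfp990 they were Gm6741 (r = 0.926), Arhgef16 (0.924), the 7SL RNA copy Rn7s2 (0.914), Ppcs, an enzyme of coenzyme A synthesis (0.912), and Tcf7, the transcription factor TCF1 (0.908). Arhgef16 and Ppcs lie on chromosome 4 too, starting at 154278486 and 119418530. Tcf7 had means of 5.26, 13.9, 11.6 and 10.6 CPM in untreated Tespa1+/+, untreated Tespa1-/-, 5-FU-treated Tespa1+/+ and 5-FU-treated Tespa1-/-, the order seen in Zfp990 over a narrower range.

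For Zfp986 the closest were Nrp1, the coreceptor neuropilin 1 (r = 0.956), the histone H3K36 methyltransferase gene Nsd1 (0.949), the telomere-binding Pot1b (0.897), Gm15459 (0.861) and n-R5s33 (0.857). For Zfp708 they were the immunoglobulin kappa segment Igkv15-103 (0.991), Gm10801 (0.919), the neuronal RNA-binding gene Elavl4 (0.911), Gm10718 (0.903) and Banp (0.899). Igkv15-103 had 34, 15 and 23 counts in untreated Tespa1-/-, 1, 0 and 0 in untreated Tespa1+/+ and 0 in every library after 5-FU. Elavl4 was at 2.31 CPM in untreated Tespa1-/- and at 0.214, 0.157 and 0.368 CPM in untreated Tespa1+/+, 5-FU-treated Tespa1+/+ and 5-FU-treated Tespa1-/-. Between the members themselves r was 0.787 for Zfp986 and Zfp990, 0.752 for Zfp986 and Zfp708 and 0.649 for Zfp990 and Zfp708, so none of the 3 was among the 5 closest genes of another.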

How the data were processed

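The authors deposited raw read counts and FPKM per gene for 12 libraries. The processing notes name GRCm38, CASAVA 1.8, HISAT2, StringTie and edgeR, without roles, and which program counted reads, with or without strand, is not given in the sources used here. The deposited FPKM served only to compare genes per length. Counts were tested with edgeR 4.0.16 (R 4.3.3; filterByExpr, TMM, glmQLFit, glmQLFTest) on the 6 libraries of each comparison, with Benjamini-Hochberg adjustment over all genes tested. CPM used TMM factors over the 12 libraries. DESeq2 1.42.0 was an alternative. The test was also run on simulated data, whose outcomes are not given here and carry no weight in the results. Zfp990 passed the filter on low counts in 4 comparisons, Zfp986 in 3 and Zfp708 in 2, and no test of them is given.

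Of the genes, 53360 were in GENCODE M21 and 96.3% of those at the same position. Zinc fingers and the KRAB core were sought in translated GENCODE coding sequences, since no protein table was used here, and the family list was taken by symbol. Members and lists were chosen with earlier results of these data known. Named genes were the members, the 5 genes most like each, neighbours called between genotypes, the 3 largest rises and falls among called genes of the family per genotype comparison with at least 1 CPM in a group, Trim28, Setdb1 and Tespa1. Genes sharing windows, Gm13230 and Rslcan18 were named after their values were seen. Of the corepressor list, 34 of 35 genes were in the table. Replicates of a group are separate libraries, and nothing in the labels says that each is 1 mouse, so p-values measure the spread between these libraries. The untreated Tespa1-/- libraries were the most alike, with a median chi-square per gene between pairs of 2.08 to 2.47 against 4.16 to 5.87 in the other groups. Same-numbered libraries of different groups did not deviate together (correlations -0.06 to 0.031). T cell markers summed to 1.03 to 8.76 CPM, monocyte markers to 148 to 238 CPM, B cell markers to 34.0 to 293 CPM and megakaryocyte markers to 32.0 to 166 CPM over the libraries.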

Additional observations from a re-analysis of the deposited data

Results flagged for a closer look

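By edgeR's interaction test over the 12 libraries, 936 of 18696 genes (5.01%) had an interaction at an adjusted p below 0.05. The genotype effect differed between treatments for Tespa1 and for 4 genes of the list taken by symbol (Zfp and a number). These 4 were named by rule, and Zfp36 belongs among them by its symbol only. The effect also differed for Zfp534, named after its values were seen because it shares sequence with the members. The values are the log2 fold change after 5-FU minus that in untreated LSKs. Tespa1 had -1.05 (SE 0.15, adjusted p = 0.00104), from -0.42 untreated to -1.47 after 5-FU. Zfp169 had -1.41 (SE 0.20, adjusted p = 0.00125), from 1.29 untreated to -0.12 after 5-FU. Zfp36 had 0.44 (SE 0.08, adjusted p = 0.00482), from -0.88 to -0.44. Zfp534 had -2.31 (SE 0.59, adjusted p = 0.0408), from 1.58 to -0.73, with neither effect called by itself. Zfp626 had -1.04 (SE 0.22, adjusted p = 0.0154), from 0.83 to -0.21. Zfp992 had -0.76 (SE 0.18, adjusted p = 0.0295), from -0.04 to -0.80. Of the neighbours, 4 of 65 had an interaction, and of the genes named Zfp and a number, 15 of 337. Of the 15 genes named because their levels followed those of a member, 8 had an interaction at this threshold, which the choice by pattern over the same libraries favours, so their values are not given as results.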

How the results depend on the processing

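Another scaling (24 values) moved the mean level of a member in a group by less than 1 SD. Leaving out 1 of 3 libraries cannot move a mean that far, but it moved 4 low means by 1.5 times or more. Zfp986 in 5-FU-treated Tespa1-/- went from 1.04 to 1.56 without library 1 and 0.407 CPM without library 3, Zfp990 in untreated Tespa1+/+ from 0.208 to 0.0892 without library 2 and 0.311 CPM without library 3, and Zfp708 from 0.0910 to 0 CPM without library 1 of 5-FU-treated Tespa1+/+ and from 0.0129 to 0 CPM without library 2 of 5-FU-treated Tespa1-/-. Of 120 other alternatives for the counts of called genes, 87 stayed within 1.5 times. For genes named Zfp and a number, the 6 calls between untreated genotypes became 19 with DESeq2, 2 with the replicate block, 10 with no fold change threshold, 39 at an unadjusted p and 2 in the KRAB-core list. The 18 calls after 5-FU became 11 with no filter, 47 at an unadjusted p and 8 in the KRAB-core list. The 12 calls between treatments in Tespa1+/+ became 21 with DESeq2, 19 with all 12 libraries in 1 fit, 43 at an unadjusted p and 6 in the KRAB-core list, and the 10 in Tespa1-/- became 6 with all 12 libraries, 27 with no fold change threshold and 31 at an unadjusted p. For neighbours, the 3 untreated calls became 10 with DESeq2, 5 with all 12 libraries, 1 with the replicate block and 17 at an unadjusted p, and the 8 after 5-FU became 5 with no filter and 3 within 0.5 Mb. The 0 between treatments in Tespa1+/+ became 2 with DESeq2, 2 with all 12 libraries, 1 with library totals and 6 at an unadjusted p, and the 3 in Tespa1-/- became 1 with the replicate block, 5 with no fold change threshold, 8 at an unadjusted p and 1 within 0.5 Mb. Corepressor calls went from 0 to 1, 6, 3 and 6 with no fold change threshold. The cause was not tested. The replicate numbers showed no clear pairing, since not every library correlated best with its own number. That cannot exclude a batch shared by number, which was not tested. Calls lost under the block are not read as weaker effects.

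Without 1 library, calls of genes named Zfp and a number ranged from 2 to 9 untreated, 10 to 15 after 5-FU, and 6 to 11 and 6 to 19 between treatments in Tespa1+/+ and Tespa1-/-. Those of neighbours ranged from 1 to 3, 2 to 6, 0 to 1 and 1 to 3, and those of corepressors were 0 throughout. With no filter on low counts, the median of all genes moved to 0.22 in the untreated comparison and to -0.38 between treatments in Tespa1-/-, and the medians of the KRAB-core genes (0.26 and -0.33) no longer stood apart from it.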
